A study of Mus musculus with 4 samples.

Results

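The genes described here encode the nuclear subunits of the mitochondrial respiratory chain and ATP synthase, with their tissue and hypoxia isoforms, in mouse fibroblasts of the tumour stroma, known as cancer-associated fibroblasts (CAFs). They were taken from the count table by gene symbol: the Nduf genes of complex I, Sdha to Sdhd of complex II, the Uqcr genes and Cyc1 of complex III, Cycs (cytochrome c), Cox4 to Cox8 of complex IV and the Atp5 genes of complex V. Of 23377 genes in the table, 94 matched these names and 88 had at least 40 reads summed over the 4 libraries. All 88 passed the filter on low counts, which left 12001 genes tested. They comprised 76 common subunits, 2 isoforms (Ndufa4l2 and Cox7a1) and 10 assembly factors or related genes that share the name pattern. Another 6 isoforms matched the names with fewer than 40 reads. At the boundary, Cox7a1 had 50 reads in all and Cox6a2 had 38.

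Polyadenylated RNA was sequenced in 2 libraries of CAFs associated with resistant tumours (title RES4) and 2 libraries of CAFs associated with normal tumours (title WTA). The labels give no strain, age, allele, treatment, sort or gate for either group, and describe both a TruSeq and a SMART-seq2 preparation without saying which library had which. The design text speaks of biological replicates, but within a group the titles share 1 name, so a group could stem from a single tumour or culture, and its traits and those of the group cannot be told apart. Every p-value here thus measures the spread among these libraries alone, part of which may be technical. Resistant replicate 1 held 2845237 reads and resistant replicate 2 held 2785936, against 3948066 in normal replicate 1 and 5558541 in normal replicate 2.

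All 11 tested of 12 listed fibroblast markers were called higher in the resistant libraries, against 15.5% of all genes tested. DESeq2 and edgeR's likelihood ratio test each called 10 of them, and 9 were called with offsets for abundance. The summed level of the list was 8808 to 9485 CPM (read counts scaled to a common size, with TMM-scaled library sizes) in the resistant libraries, against 3246 to 3918 CPM in the normal ones. All 6 tested of 8 listed Schwann cell or neural crest markers were called lower, against 13.9% of all genes tested. Their list summed to 8.07 to 8.37 CPM in the resistant libraries, against 1106 to 1249 CPM in the normal ones. Of 11 listed pericyte or mural markers 7 were tested. Myh11 and Rgs5 were called higher and Cspg4 and Mcam lower (28.6% each way), against 15.5% and 13.9% of all genes tested. DESeq2 called 1 of the 7 higher and edgeR's likelihood ratio test 3. Of 5 listed immune markers 2 were tested and 1, Lyz2, was called higher. It had 20 and 21 reads in the resistant libraries, against 2 and 7 in the normal libraries. No listed endothelial or epithelial marker was tested. The part of all these markers in the results below was not tested. In such bulk libraries fewer cells of a type and less RNA per cell cannot be told apart.

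Respiratory chain complexes I to IV pass electrons from NADH and succinate to oxygen and pump protons across the inner mitochondrial membrane, except for complex II, which pumps none; complex V uses the gradient to make ATP. Several subunits exist as pairs of genes, 1 used in most tissues and 1 restricted to a tissue or to low oxygen. Ndufa4l2 is a hypoxia-induced relative of Ndufa4, a subunit first assigned to complex I and now counted in complex IV, and it is known as a target of the transcription factor HIF-1 that lowers oxygen use. Cox4i2 is the isoform of Cox4i1 known from lung and low oxygen. Cox7a1, Cox6a2 and Cox8b are the isoforms typical of heart and skeletal muscle, and Cox7a1 and Cox8b also of brown fat.

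Promoters are shown for the called members that have an entry in the RefSeq promoter table (build GRCm38.p6), and for the common partner of Cox7a1. Each window runs from 250 bases before to 50 bases after the start of the gene, 5′ to 3′ on its own strand. Capitals mark ACGTG and GCGTG on either strand, the letters of the core of the element bound by hypoxia-inducible factors.
Cox7a1, chr7:30183921-30184220, plus strand: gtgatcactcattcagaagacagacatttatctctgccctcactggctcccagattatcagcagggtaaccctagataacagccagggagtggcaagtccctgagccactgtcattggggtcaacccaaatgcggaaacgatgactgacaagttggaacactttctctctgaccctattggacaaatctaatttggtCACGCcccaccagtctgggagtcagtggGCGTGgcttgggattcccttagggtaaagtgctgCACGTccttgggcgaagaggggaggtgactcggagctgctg
Cox7a2, chr9:79759804-79760103, minus strand: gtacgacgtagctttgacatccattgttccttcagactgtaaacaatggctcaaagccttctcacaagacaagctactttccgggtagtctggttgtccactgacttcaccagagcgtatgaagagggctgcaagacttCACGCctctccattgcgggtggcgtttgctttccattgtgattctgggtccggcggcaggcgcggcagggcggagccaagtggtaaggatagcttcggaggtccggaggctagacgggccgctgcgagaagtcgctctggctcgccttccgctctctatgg
Ndufv3, chr17:31519865-31520164, plus strand: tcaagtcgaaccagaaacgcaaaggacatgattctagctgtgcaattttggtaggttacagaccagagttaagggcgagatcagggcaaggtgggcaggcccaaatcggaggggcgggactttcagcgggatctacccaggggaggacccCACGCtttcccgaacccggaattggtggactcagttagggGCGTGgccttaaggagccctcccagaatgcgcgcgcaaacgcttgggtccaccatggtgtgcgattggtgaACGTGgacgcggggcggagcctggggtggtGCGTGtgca
Ndufaf4, chr4:24897833-24898132, plus strand: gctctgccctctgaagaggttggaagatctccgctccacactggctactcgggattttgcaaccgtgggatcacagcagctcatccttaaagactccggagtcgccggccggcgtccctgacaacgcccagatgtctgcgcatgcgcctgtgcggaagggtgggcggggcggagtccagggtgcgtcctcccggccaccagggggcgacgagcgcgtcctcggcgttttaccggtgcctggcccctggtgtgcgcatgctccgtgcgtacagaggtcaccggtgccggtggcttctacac
The Cox7a1 window held 3 matches, the Cox7a2 window 1, the Ndufv3 window 4 and the Ndufaf4 window 0. Of all 32851 windows in the table, 43.8% held at least 1 of these letter runs (19.6% ACGTG and 32.4% GCGTG). Among the 71 respiratory chain genes with a window, 47 (66.2%) had a match in any of their windows. This counts genes and the former share counts windows, so the shares are not directly comparable. A match is a run of letters and says nothing of binding, and its absence says only that the letters are not in the window.

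Ndufa4l2 was the gene of the set with the largest difference between the groups. It had 378 and 566 reads in the resistant libraries, against 23 and 1 in the normal libraries. On the CPM scale this was 143.8 and 207.7 CPM in resistant replicates 1 and 2, against 5.70 and 0.168 CPM in normal replicates 1 and 2. The groups did not overlap, and the normal libraries also stood far apart from each other. The log2 fold change of resistant over normal was 6.03 ± 0.79 (SE; 95% interval 4.32 to 7.75; adjusted p = 1.19e-04, edgeR's quasi-likelihood test). The ratio of pooled counts, relative to the pooled TMM-scaled library sizes, was 73.3, with an exact 95% interval of 49.0 to 115 that covers counting error only. Without normal replicate 1 that ratio was 1048 (188 to 41429), and without normal replicate 2 it was 30.9 (20.5 to 49.1), so its size depended on the normal library used while its direction did not. In the authors' deposited table Ndufa4l2 had a log2 fold change of 5.9 with an adjusted p of 0.0584. It was the only 1 of the 88 genes there with an adjusted p under 0.1, and the other 87 were listed at 1. The share of all genes at such values in that deposited table was not counted here. These counts therefore show nothing particular to the respiratory chain genes.

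Its partner Ndufa4 was at 106 and 155 CPM in the resistant libraries, against 136 and 104.5 CPM in the normal libraries, so the groups overlapped. The log2 fold change of Ndufa4 was 0.12 ± 0.31 (SE; 95% interval -0.56 to 0.80; adjusted p = 0.820, edgeR's quasi-likelihood test). Ndufa4l2 made up 57.5% (53.7 to 61.3) and 57.3% (54.1 to 60.4) of the reads of the pair in resistant replicates 1 and 2, against 4.02% (2.57 to 5.97) and 0.161% (0.00407 to 0.892) in normal replicates 1 and 2, with Clopper-Pearson 95% intervals. Per kilobase of transcript the ratio of Ndufa4l2 to Ndufa4 was 0.770 and 0.763 in the resistant libraries, against 0.0238 and 9.15e-04 in the normal libraries. Both resistant libraries thus had nearly the same share, although their Ndufa4l2 levels differed.

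Cox7a1 was the other isoform past the threshold, at a low level. It had 12 and 24 reads in the resistant libraries, against 5 and 9 in the normal libraries, or 4.57 and 8.81 CPM against 1.24 and 1.51 CPM. The log2 fold change was 2.24 ± 0.61 (SE; 95% interval 0.92 to 3.56; adjusted p = 0.0144, edgeR's quasi-likelihood test), and the pooled ratio was 4.79 (2.52 to 9.62). Its partner Cox7a2 differed by -0.01 ± 0.32 on the log2 scale, at 86.4 and 123 CPM in the resistant libraries, against 119 and 91.7 CPM in the normal libraries. Cox7a1 made up 5.02% and 6.67% of the reads of its pair in the resistant libraries, against 1.03% and 1.62% in the normal libraries. The call did not hold with DESeq2 (adjusted p = 0.0969), nor without resistant replicate 2 (0.136), normal replicate 1 (0.149) or normal replicate 2 (0.123). Of 7 listed skeletal muscle markers 2 were tested, with opposite directions. Over all genes tested 15.5% were called higher, and of these 2 genes 1 was. This was Actn3, a fast-fibre actinin, with 77 and 53 reads in the resistant libraries, against 14 and 22 in the normal libraries (2.75 ± 0.49, adjusted p = 9.97e-04). The other, Mylpf, was not called, with 4 and 7 reads in the resistant libraries, against 17 and 28 in the normal libraries (-1.11 ± 0.60). The muscle list summed to 25.7 to 32.3 CPM in the resistant libraries, against 8.18 to 8.58 CPM in the normal libraries. Actn3 alone was at 29.3 and 19.5 CPM in the resistant libraries, against 3.47 and 3.70 CPM in the normal libraries. The defining markers of the list, Myod1, Myog and Ckm, had no read in any library. Of 6 listed brown adipocyte markers both tested ones were called, in opposite directions, against 29.4% of all genes tested in either direction. Fabp4, a fatty acid binding protein, had 41 and 67 reads in the resistant libraries, against 4 and 1 in the normal libraries (5.20 ± 0.71, adjusted p = 1.69e-04). Prdm16, a transcription factor of brown fat, had 37 and 43 reads in the resistant libraries, against 234 and 300 in the normal libraries (-1.86 ± 0.40, adjusted p = 0.00387). That list summed to 30.4 to 40.4 CPM in the resistant libraries, against 51.0 to 59.2 CPM in the normal libraries, with Adipoq at 0 in all libraries, Ucp1 at 2 reads and Cidea at 1 read in all. The part of these markers in the Cox7a1 result was not tested.

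The remaining isoforms were at or near 0. Cox4i2 had 1 and 0 reads in the resistant libraries and 1 and 0 in the normal libraries, beside 589 and 690 reads of Cox4i1 in the resistant libraries and 795 and 913 in the normal ones. In the libraries with no Cox4i2 read, its share of the pair could be up to 0.435% in resistant replicate 2 and 0.329% in normal replicate 2. Cox6a2 had 3 and 4 reads in the resistant libraries, against 9 and 22 in the normal libraries. Its pooled ratio was 0.421, with an exact 95% interval of 0.156 to 0.974 for counting error only, and it was not among the genes tested. Cox8b had no read in the resistant libraries, against 1 and 3 in the normal ones. Cox6b2, Cox7b2 and Cox8c had no read in any of the 4 libraries.

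**Figure D1:**
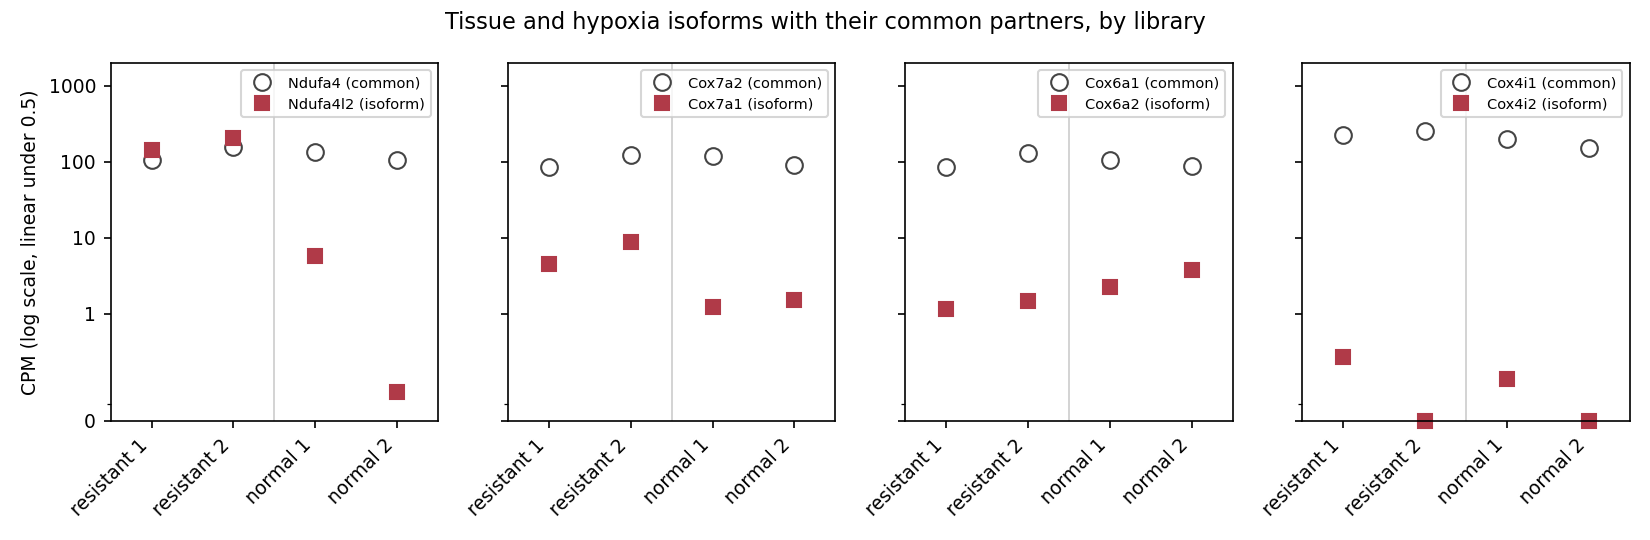
Level in CPM (log-like axis, linear under 0.5) of Ndufa4l2, Cox7a1, Cox6a2 and Cox4i2 (squares) and their common partners (circles) in the 4 libraries, resistant replicates left and normal replicates right; each point is 1 library. Ndufa4l2 reached 143.8 and 207.7 CPM in the resistant libraries, against 5.70 and 0.168 CPM in the normal ones, while Cox4i2 stayed at 0 to 1 read in each library.

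In contrast to Ndufa4l2, 1 of the 76 common subunits passed the threshold. Over all genes tested, 15.5% were called higher and 13.9% lower in the resistant libraries, or 29.4% in either direction. Among the 88 genes, 3 were called higher (Ndufa4l2, Cox7a1 and Ndufv3) and 1 lower (Ndufaf4). Among the other 75 common subunits, edgeR's quasi-likelihood test called 0, as did limma-voom, the likelihood ratio test and DESeq2, and Cycs alone had an unadjusted p under 0.05. The log2 fold changes of the 76 ran from -0.86 to 1.13 with a median of 0.05, and 44 were positive and 32 negative. Their SD was 0.317, against 1.90 over all genes tested. The 95% intervals of 55 of the 76 stayed within a log2 change of 1 in either direction, and those of 21 reached it, so a 2-fold difference was not shown to be absent for these 21. The groups' ranges lay apart upward for 14 subunits and downward for 6, and overlapped for 56; over all genes tested 31.9% lay apart upward and 32.9% downward.

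**Figure D2:**
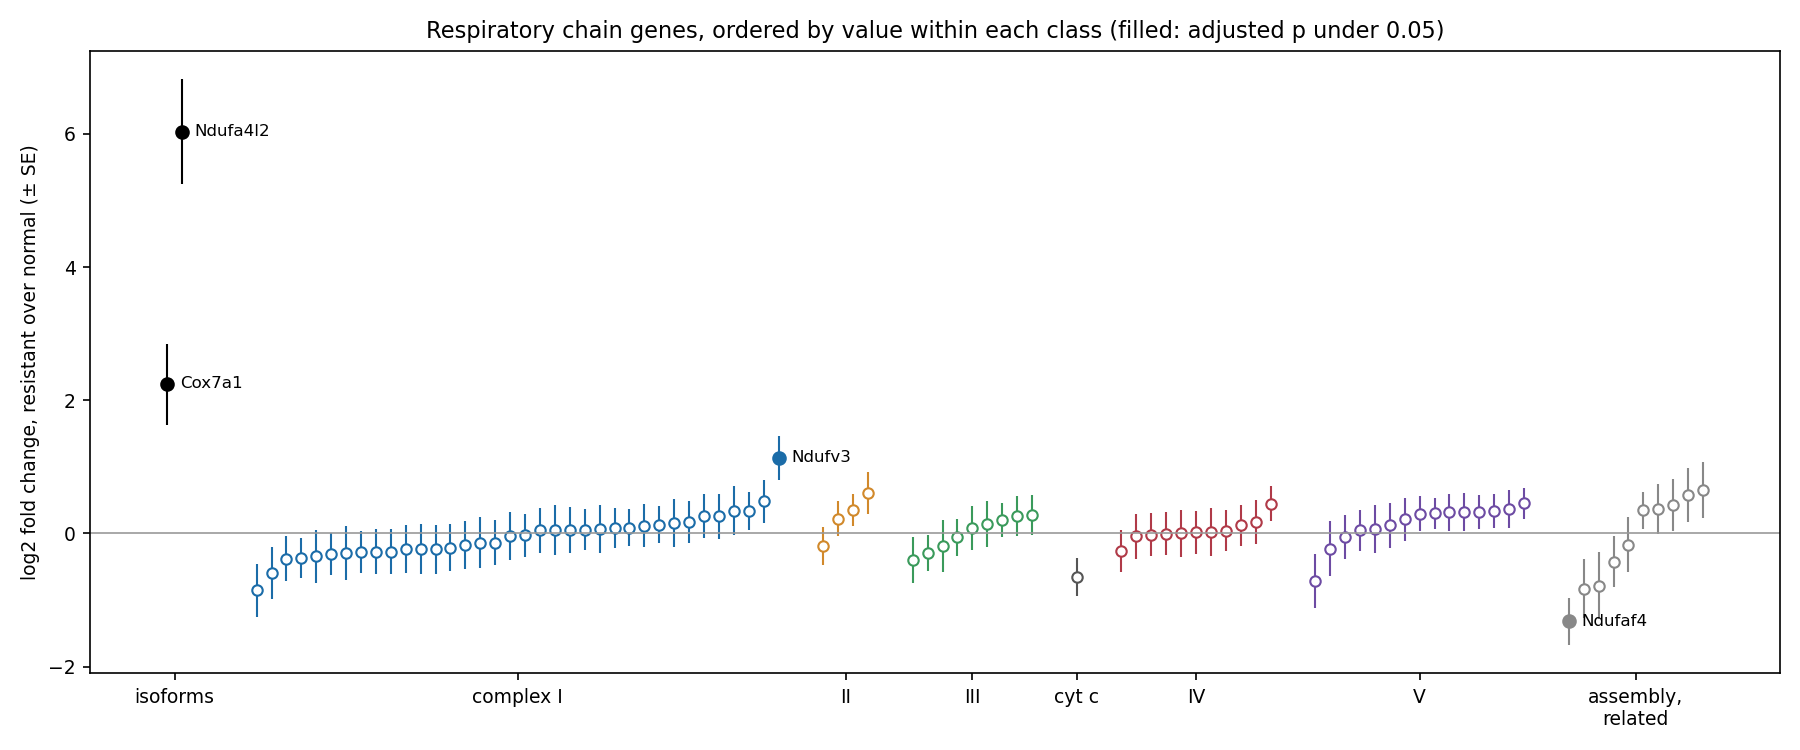
Log2 fold change of resistant over normal for the 88 genes by complex and class, ordered by value, with bars of 1 SE on either side; filled points passed an adjusted p of 0.05. The 76 common subunits lie between -0.86 and 1.13, and Ndufa4l2 stands at 6.03.

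Complex I, the entry point for electrons from NADH, had 36 common subunits, a median log2 fold change of -0.03 and 17 positive values. Without resistant replicate 1 the median was 0.26 with 30 positive, and without resistant replicate 2 it was -0.50 with 4 positive. Ndufv3, an accessory subunit of the part that oxidises NADH, was the 1 that rose. It was at 113.8 and 183 CPM in the resistant libraries, against 64.2 and 70.9 CPM in the normal libraries, with no overlap. The log2 fold change was 1.13 ± 0.33 (SE; 95% interval 0.42 to 1.85; adjusted p = 0.0206, edgeR's quasi-likelihood test). Without resistant replicate 2 it was 0.75 (adjusted p = 0.0504), and without normal replicate 1 or 2 the adjusted p was 0.305 and 0.239.

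Ndufa1, a small accessory subunit of the membrane arm, was at the other end of complex I. It had 29.3 and 55.1 CPM in the resistant libraries, against 88.4 and 64.5 CPM in the normal libraries. Its log2 fold change of -0.86 ± 0.40 did not pass (adjusted p = 0.135, edgeR's quasi-likelihood test), although it did with the replicate number as a block, under both kinds of offsets and without resistant replicate 2 (adjusted p of 0.0255 to 0.0440). Ndufb9, another membrane-arm subunit and the highest of complex I per kilobase, had 105 and 166 CPM in the resistant libraries and 142 and 118 CPM in the normal libraries (0.06 ± 0.31). Ndufa8, an accessory subunit, and Ndufs1, a core subunit that carries iron-sulfur clusters, differed by 0.48 ± 0.33 and -0.37 ± 0.30 on the log2 scale. A test without 1 library leaves its group with a single library, so a gene's own spread comes from the other group alone. Neither gene passed with all libraries, but Ndufa8 did without resistant replicate 1 (0.76, adjusted p = 0.0368) and Ndufs1 without resistant replicate 2 (-0.73, adjusted p = 0.0481, edgeR's quasi-likelihood test).

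The groups' ranges lay apart upward for 3 of the 36 subunits of complex I and downward for 3 (8.33% each). Over all genes tested these shares were 31.9% and 32.9%. Apart from Ndufv3, those upward were Ndufa8 and Ndufs6, and those downward were Ndufa1, Ndufa3 and Ndufb10. Ndufs6, Ndufa3 and Ndufb10 are given after their values were seen. Ndufs6, a subunit with a zinc site, had 47.6 and 67.9 CPM in the resistant libraries, against 46.8 and 44.4 CPM in the normal libraries (0.34 ± 0.37). Ndufa3, an accessory subunit of the membrane arm, had 25.1 and 33.0 CPM in the resistant libraries, against 44.1 and 43.9 CPM in the normal libraries (-0.60 ± 0.39). Ndufb10, also of the membrane arm, had 60.9 and 91.0 CPM in the resistant libraries, against 103 and 94.8 CPM in the normal libraries (-0.38 ± 0.33). In each the gap between the groups was smaller than the difference between the resistant libraries, except for Ndufa3.

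Complex II, succinate dehydrogenase, has 4 subunits, of which 3 had positive log2 fold changes, with a median of 0.29 (0.12 to 0.45 with a library left out). The groups' ranges lay apart upward for 3 of the 4 (75%), against 31.9% of all genes tested. Sdhc, a membrane anchor, had 106 and 127 CPM in the resistant libraries, against 67.1 and 85.7 CPM in the normal libraries, without overlap (0.61 ± 0.32, adjusted p = 0.182, edgeR's quasi-likelihood test). Sdhd, the other anchor and the highest of the complex per kilobase, differed by 0.22 ± 0.26 and Sdhb, the iron-sulfur subunit, by -0.19 ± 0.28. Complex III, which passes electrons to cytochrome c, had a median of 0.08 over 9 subunits, which was 0.31 without resistant replicate 1 and -0.32 without resistant replicate 2. Its extremes were Uqcrh, the hinge protein that holds cytochrome c1 and also the highest per kilobase, at 0.27 ± 0.30, and Uqcrq, a small subunit, at -0.40 ± 0.34. The groups lay apart downward for 1 of the 9 subunits of complex III (11.1%), against 32.9% of all genes tested. This was Cyc1, cytochrome c1, named after its values were seen. Cyc1 had 132 and 154 CPM in the resistant libraries, against 185 and 165 CPM in the normal libraries (-0.29 ± 0.27). No subunit of complexes II to V passed in edgeR's quasi-likelihood or likelihood ratio test, limma-voom or DESeq2, and none had an unadjusted p under 0.05.

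Cytochrome c, the mobile carrier between complexes III and IV, is encoded by Cycs. It was at 119.9 and 185 CPM in the resistant libraries, against 262 and 219 CPM in the normal libraries, without overlap. Its log2 fold change was -0.66 ± 0.28 (unadjusted p = 0.0389, adjusted p = 0.105, edgeR's quasi-likelihood test). It passed with library totals as the scale (-0.78, adjusted p = 0.0392), with the replicate number as a block (0.0426) and without resistant replicate 2 (0.0215). Complex IV, cytochrome c oxidase, had a median of 0.02 over 11 common subunits, which was 0.29 without resistant replicate 1 (11 positive) and -0.29 without resistant replicate 2 (1 positive). Cox4i1, its highest subunit per kilobase, had 224 and 253 CPM in the resistant libraries, against 197 and 154 CPM in the normal libraries (0.45 ± 0.26). Cox5a, the lowest by fold change, had 87.5 and 142 CPM in the resistant libraries and 155 and 121 CPM in the normal libraries (-0.26 ± 0.32).

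Complex V, ATP synthase, had a median log2 fold change of 0.30 over 15 subunits, and 12 of them were positive. It was 0.12 with 8 positive without resistant replicate 2 and 0.13 with 9 positive without normal replicate 2. For 7 subunits the groups' ranges lay apart upward: Atp5a1, Atp5b, Atp5c1, Atp5d, Atp5g2, Atp5j and Atp5o. That was 46.7% of the 15, against 31.9% of all genes tested. Of the 1734 genes with at least 1 read per transcript base over the 4 libraries, 36.9% lay apart upward. Their median log2 fold change was 0.13, and 1037 were positive. Atp5b, the catalytic beta subunit and the highest of the complex per kilobase, had 548 and 665 CPM in the resistant libraries, against 496 and 393 CPM in the normal libraries (0.45 ± 0.23, adjusted p = 0.173, edgeR's quasi-likelihood test). Atp5k, subunit e of the membrane part, lay apart downward at 22.4 and 33.8 CPM in the resistant libraries, against 50.8 and 41.7 CPM in the normal libraries (-0.72 ± 0.40, adjusted p = 0.210). The 7 subunits apart upward, chosen after their values were seen, had log2 fold changes of 0.30 to 0.45. In Atp5c1, the gamma subunit of the rotor, the lowest resistant library at 245 CPM was close to the highest normal library at 243 CPM. In Atp5a1, the alpha subunit, the values were 486 and 528 CPM in the resistant libraries, against 453 and 371 CPM in the normal libraries (0.30 ± 0.23). With offsets for abundance the median of complex V was 0.06 and the value of Atp5b 0.090. Per kilobase of transcript Atp5b and Cox4i1 were the highest of all 76 common subunits, each at a mean of 274 CPM per kb over the 4 libraries. Ndufb2, an accessory subunit of complex I, was the lowest at 27.3 CPM per kb. That rank depends on its assigned length of 2413 bases, against a median of 849.5 bases for the common subunits. Without scaling by length Ndufb2 was not the lowest: its group means were 59.0 CPM (resistant) and 72.5 CPM (normal), against 29.1 and 44.0 CPM for Ndufa3. Many subunit genes have processed pseudogenes, and neither strand nor multiple alignments are described for the counting, so reads shared with a copy or an antisense gene cannot be separated here.

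The assembly factors help build the complexes without remaining in them. Ndufaf4, which acts early in the assembly of complex I, was the gene of the set that fell. It was at 36.1 and 57.6 CPM in the resistant libraries, against 117 and 118 CPM in the normal libraries, without overlap. The log2 fold change was -1.32 ± 0.35 (SE; 95% interval -2.09 to -0.56; adjusted p = 0.0129, edgeR's quasi-likelihood test), and the call did not hold without normal replicate 1 (0.132) or normal replicate 2 (0.169). Of all 10 assembly factors and related genes, 5 had positive and 5 negative log2 fold changes, with a median of 0.09. The 7 Ndufaf genes among them had 5 negative values and a median of -0.43. Ndufaf5, a complex I assembly factor, had 17.5 and 38.9 CPM in the resistant libraries, against 45.1 and 55.4 CPM in the normal libraries (-0.83 ± 0.44). Ndufaf6, another such factor, had 34.2 and 10.6 CPM in the resistant libraries, against 38.4 and 38.9 CPM in the normal libraries (-0.79 ± 0.50). Resting on a single resistant library and the spread of the normal pair, Ndufaf5 without resistant replicate 2 passed at -1.52 (adjusted p = 0.0227), and without resistant replicate 1 Ndufaf6 passed at -1.85 (adjusted p = 0.0120, edgeR's quasi-likelihood test).

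Assembly factors whose names lie outside the pattern formed a separate list of 38 genes, of which 33 were tested. None was called higher and 4 (12.1%) were called lower, against 13.9% lower over all genes tested, with a median log2 fold change of -0.14. DESeq2, limma-voom and edgeR's likelihood ratio test also called none higher, and none had an unadjusted p under 0.05 upward. Sdhaf1, which helps insert iron-sulfur clusters into complex II, had 6.47 and 2.94 CPM in the resistant libraries, against 36.9 and 36.9 CPM in the normal libraries (-2.97 ± 0.50, adjusted p = 7.29e-04). Cox11, which helps deliver copper to complex IV, had 16.4 and 6.61 CPM in the resistant libraries, against 45.3 and 55.5 CPM in the normal libraries (-2.14 ± 0.48, adjusted p = 0.00505). Ecsit, a complex I assembly factor also known from Toll-like receptor signalling, differed by -1.30 ± 0.36 and Coa4, a complex IV assembly factor, by -1.75 ± 0.49 (adjusted p = 0.0160 each). The number of genes of this list called lower changed with the library left out, as did the number over all genes tested. Without resistant replicate 1 some genes of the list were also called higher. Coa4 lost its call without normal replicate 1 (adjusted p = 0.0729), normal replicate 2 (0.0539) or resistant replicate 1 (0.0559), and Ecsit without normal replicate 1 (0.111) or normal replicate 2 (0.219).

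The 2 resistant libraries differed from each other across the common subunits. All 76 were lower in resistant replicate 1 than in resistant replicate 2, with a median log2 ratio of -0.59, against 0.05 over all genes tested. In the normal group 66 of 76 were higher in replicate 1, with a median of 0.25. The direction of the set's median followed this: it was 0.33 without resistant replicate 1 (66 of 76 positive) and -0.31 without resistant replicate 2 (17 of 76 positive). The summed level of the 76 subunits was 8200 and 11656 CPM in the resistant libraries, against 9976 and 8653 CPM in the normal libraries, so both normal values lay between the resistant ones. For complex I the sums were 2685 and 4260 CPM in the resistant libraries, against 3645 and 3333 CPM in the normal libraries, the same arrangement. In complex II the groups did not overlap, at 714 and 914 CPM in the resistant libraries, against 712 and 669 CPM in the normal libraries. In complex V the sums were 2603 and 3336 CPM in the resistant libraries, against 2703 and 2218 CPM in the normal libraries, so normal replicate 2 was the lowest.

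**Figure D3:**
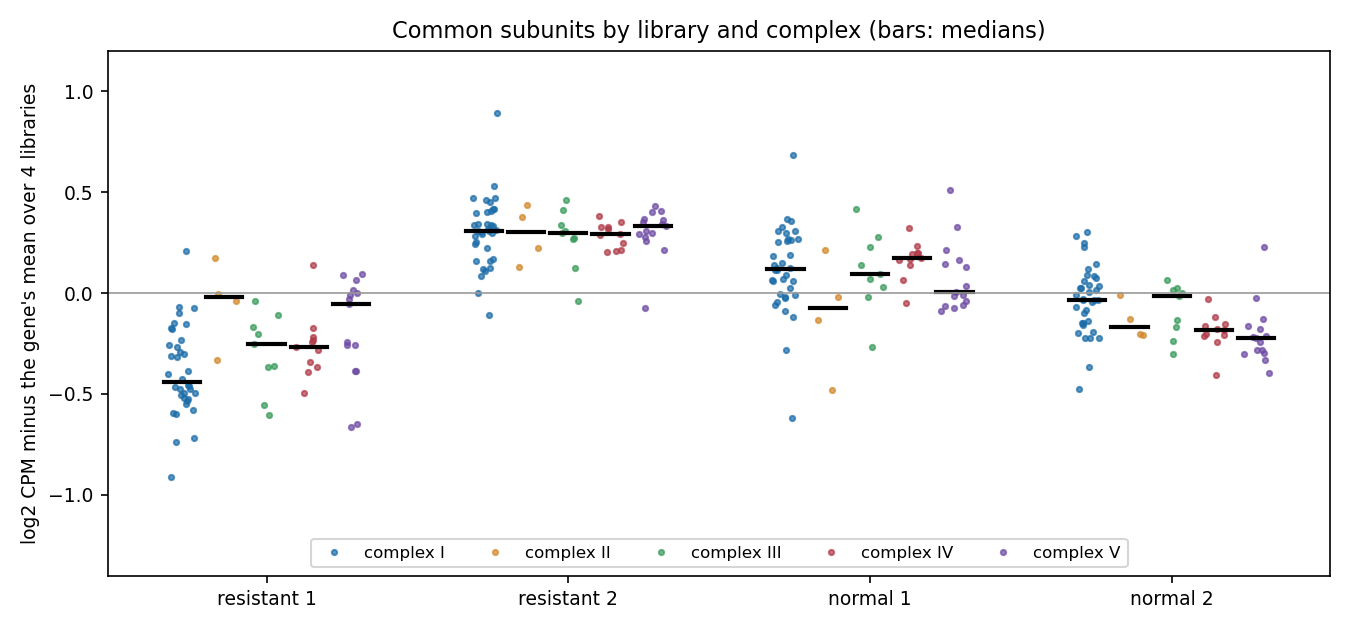
Log2 CPM of 75 common subunits (all but Cycs), each minus its own mean over the 4 libraries, by complex; points are genes and bars are medians. Resistant replicate 2 lies highest; resistant replicate 1 is lowest in complex I, where the summed level was 2685 CPM there, but not in complex V, where normal replicate 2 was lowest at 2218 CPM.

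The difference between the resistant libraries went with transcript length. The 88 genes had a median transcript length of 919.5 bases, against 2893 bases over all genes tested. Genes of any kind under 1000 bases had a median log2 ratio of resistant replicate 1 over replicate 2 of -0.53 (n = 813), and those of at least 5000 bases 0.57 (n = 2027). In the normal group the medians were 0.12 under 1000 bases and 0.32 from 5000 bases upward. Offsets that remove each library's trend along length moved the median log2 fold change of the 76 subunits to -0.01. The part of RNA quality or library preparation in this was not tested.

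**Figure D4:**
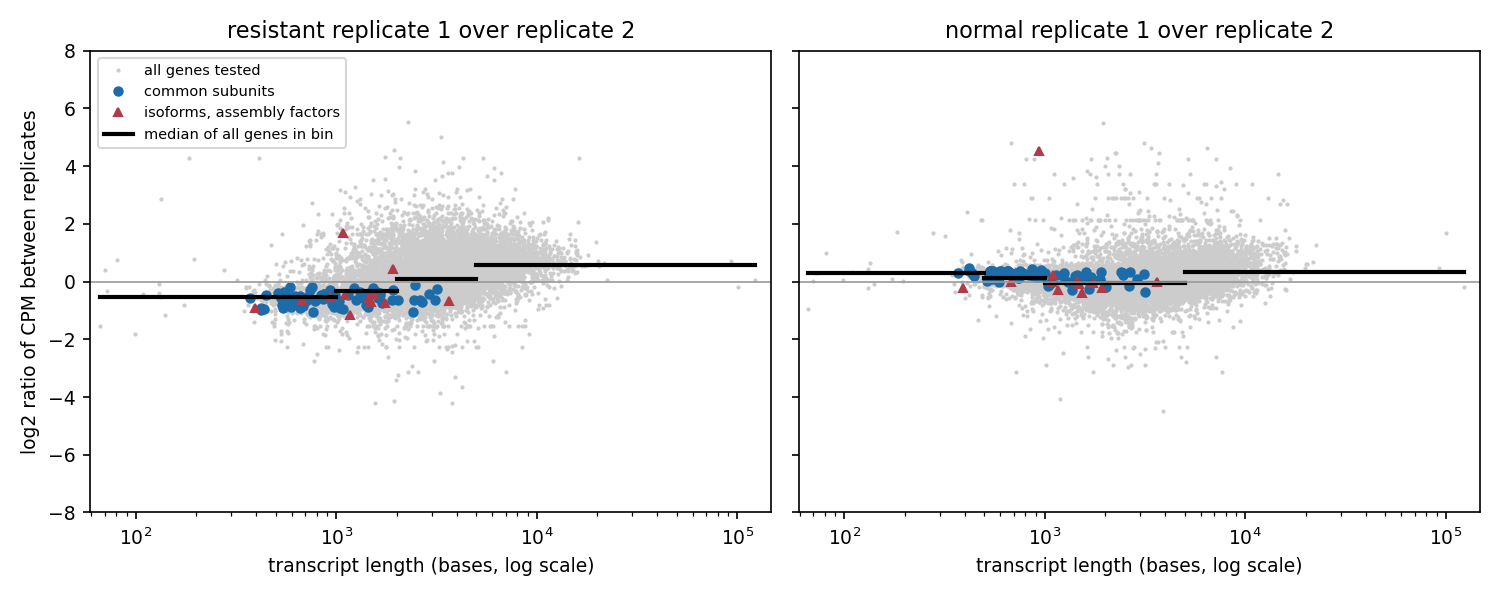
Log2 ratio of CPM between the replicates of each group against transcript length (log axis), resistant left and normal right; grey points are all genes tested and black bars their medians by length. Of the 76 common subunits 47 are under 1000 bases, and the 76 have a median of -0.59 between the resistant libraries and 0.25 between the normal ones.

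The common subunits were also densely covered. Their median was 1.91 reads per transcript base summed over the 4 libraries, against 0.281 over all genes tested, and 69 of 76 had at least 1. Of all genes with at least 1 read per base, 17.8% were called in either direction, against 31.3% of those below. The SD of the log2 fold change was 0.833 in the denser genes and 2.02 in the others. The 1 call among 76 subunits is therefore also to be read beside the 17.8% of genes of like density. Picard is named in the submitters' processing notes, but its use is not described there, so whether repeated reads were removed is not known here. The part of such a step was not tested.

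**Figure D5:**
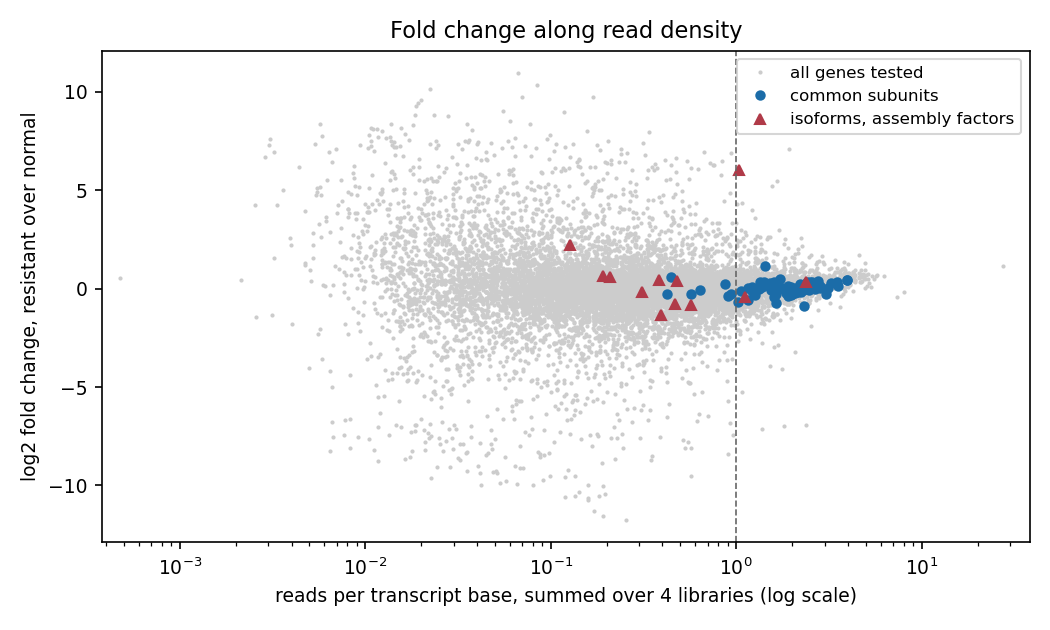
Log2 fold change of resistant over normal against reads per transcript base summed over the 4 libraries (log axis), with a dashed line at 1; grey points are all genes tested. The SD is 0.833 right of the line and 2.02 left of it, and 69 of the 76 common subunits lie to the right.

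Other mitochondrial genes were counted in lists. In the list of hypoxia-induced and mitochondrial genes, which holds Ndufa4l2 and was used with results of these data known, 10 of 18 tested genes (55.6%) were called higher, against 15.5% of all genes tested, and 0 lower, with a median log2 fold change of 1.10. Of the downward genes 2 had an unadjusted p under 0.05; limma-voom called 2 lower, DESeq2 1 and edgeR's likelihood ratio test 1. Egln3, an oxygen-sensing prolyl hydroxylase, differed by 6.57 ± 0.54, with 70.0 and 69.4 CPM in the resistant libraries, against 0.743 and 0.673 CPM in the normal libraries. Pdk1, which holds back pyruvate entry into the mitochondrion, differed by 2.73 ± 0.33 and Bnip3, a mitophagy receptor, by 2.16 ± 0.24. The list had 7 genes called higher without normal replicate 1 and 6 without normal replicate 2, and 2 called lower without resistant replicate 1.

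Among 16 tested regulators of mitochondrial biogenesis, 1 (6.25%) was called higher and 2 (12.5%) lower, against 15.5% and 13.9% of all genes tested, with a median of -0.12. Myc, a transcription factor of growth, had 424 and 435 CPM in the resistant libraries, against 95.6 and 111 CPM in the normal libraries (2.06 ± 0.25, adjusted p = 6.93e-05). Ppargc1b, a coactivator of respiratory genes, had 4 and 2 reads in the resistant libraries, against 84 and 145 in the normal libraries (-4.29 ± 0.60, adjusted p = 2.00e-04). Polg, the mitochondrial DNA polymerase, had 38.4 and 12.5 CPM in the resistant libraries, against 101 and 104 CPM in the normal libraries (-2.01 ± 0.47, adjusted p = 0.00637). Of 11 tested carriers and regulators of phosphorylation, Slc25a13, an aspartate-glutamate carrier, was the 1 called higher (9.09%, against 15.5% of all genes tested; 1.65 ± 0.44, adjusted p = 0.0132), and not without normal replicate 1 or 2. In 14 genes of mitophagy and mitochondrial mass, edgeR's quasi-likelihood test called 0, against 29.4% of all genes tested in either direction. Of these 14, 3 had an unadjusted p under 0.05, DESeq2 called 1, and 2 were called by limma-voom and 2 by edgeR's likelihood ratio test. The most abundant of them were Hspd1, a chaperone, at -0.08 ± 0.24, and Cs, citrate synthase, at -0.14 ± 0.23. None of the 13 listed symbols of subunits encoded by mitochondrial DNA was in the count table, so these subunits were not analysed here.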

How the data were processed

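Whole-number read counts per gene symbol were deposited by the authors for 4 mouse CAF libraries. The submitters' processing notes name HTSeq 0.7.2, Picard 1.62, TopHat2 2.1.1, bcl2fastq 2, DESeq2 and the mm9 build. What each did, with which settings and on which strand, is not stated there. The authors' deposited table also holds log2 fold changes and adjusted p-values.

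The counts of the groups were compared in edgeR 4.0.16 (R 4.3.3) over all 12001 genes kept by filterByExpr (minimum count 10), with TMM scaling, a quasi-likelihood F test with the group as only term, and a Benjamini-Hochberg adjusted p under 0.05. Adjusted p-values with no tool named come from this test. The SE is the fold change over the square root of F. Library totals ran from 2785936 to 5558541 reads, and a count of 0 allows 3 counts, or 0.540 to 1.08 CPM. Intervals of shares and of pooled ratios cover counting error only; those of fold changes come from the fit and include the spread between libraries. Lengths are median transcript lengths from GENCODE M21, matched for 99.4% of tested genes; promoters are RefSeq's, 300 bases each.

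Members and lists were chosen with earlier results of these data known. Named genes are all isoforms with their partners, members called or with an unadjusted p under 0.05, the extremes of each complex by level and fold change, members called under an alternative, and up to 4 called genes per list. Alternatives were other scalings (relative log expression, upper quartile, library totals), a minimum of 50 reads in 2 libraries or no filter, limma-voom 3.58.1, DESeq2 1.42.0, edgeR's likelihood ratio test, a block for the replicate number, offsets for abundance and length (loess span 0.5), and each library left out. The procedure was tested on simulated counts.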

Additional observations from a re-analysis of the deposited data

How the results depend on the processing

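Ndufa4l2 kept its direction and its call under all 15 alternatives, with adjusted p-values from 3.88e-38 to 0.00681. Cox7a1 was called in 10 of the 14 alternatives that tested it, Ndufv3 in 12 of 15 and Ndufaf4 in 13 of 15. Leaving out each library in turn gave 1 to 4 respiratory chain genes called higher and 0 to 5 called lower, against 3 and 1 with all libraries. Over all genes it gave 1078 to 2024 called higher and 951 to 2323 called lower. The median of the common subunits ran from -0.31 to 0.33 there. Genes called lower numbered 2 with library totals, 2 with abundance offsets and 2 with length offsets. With the replicate number as a block, 3 were called higher and 5 lower: Ndufaf4, Cycs, Ndufa1, Ndufaf5 and Ndufaf6. Over all genes the block gave 2257 higher and 2267 lower. The labels do not say that the numbers pair the samples, and same-numbered libraries deviated together with a correlation of 0.217.

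Directions were not stable among the 76 common subunits. The main test gave 44 positive values and abundance offsets gave 25. There were 66 without resistant replicate 1 and 17 without resistant replicate 2. For example, Ndufb9, at 0.06 in the main test, was -0.068 with library totals, -0.22 with abundance offsets and -0.010 with length offsets. With a library left out Ndufb9 ran from -0.31 to 0.36. Uqcrh was -0.027 with abundance offsets. With a library left out Cox5a ran from -0.66 to 0.051 and Sdhb from -0.44 to 0.028. The cause was not tested. With library totals the median of all genes was -0.14 and that of the common subunits -0.07, and 1736 genes were called higher and 2150 lower, so the balance of calls turned. Depth limits the isoforms with few reads: a library with no read still allows 3 counts. With 2 libraries in each group, a gene's own spread within a group rests on a single difference. The quasi-likelihood test moderates that spread with the spread of all genes tested, so its SEs and p-values also rest on the other genes.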
